A study of Mus musculus with 16 samples.

Results

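The 10 loci described here belong to genes used as markers of mouse embryonic stem (ES) cells or as factors and reporters in reprogramming: Myc, Mycn, Lin28a, Sall4, Utf1, Dppa3, Dppa4, Dppa5a, Tdh and Fbxo15. A locus took in the gene body and 100 kb to either side of each annotated transcription start site (TSS) of the gene in GENCODE M21, and an accessible region was placed in it when the centre of the region lay inside. By this rule the loci held 179 of the 81132 regions of the merged ATAC-seq list (0.221%), and no region fell in more than 1 locus. ATAC-seq marks open chromatin by the sites at which the Tn5 transposase can enter the DNA. The cells were SBROS cells, a mouse ES line on the CGR8 background that carries reporters for SOX1 and Brachyury. SOX2 is SNAP-tagged at both endogenous alleles and OCT4 HALO-tagged at 1 allele, so that the dye on OCT4 reports only the tagged copy. The paper found tagged and total OCT4 well correlated in single cells, and proposes that the tagged copy allows an estimate of the total. The SBROS cells were grown in serum with LIF, the GSK3 inhibitor CHIR99021 (3 µM) and the MEK inhibitor PD184352 (0.8 µM). They were stained with HaloTag TMR ligand (100 nM), SNAP-SiR647 (12 nM) and Hoechst and sorted in G1. The 4 populations were high for both proteins (SHOH), high for SOX2 and low for OCT4 (SHOL), low for SOX2 and high for OCT4 (SLOH) or low for both (SLOL), with 3 replicates of each and 12 libraries in all. The regions of these 12 libraries were merged by the authors, the list gives a position and no level for any library, and the depth behind a region is unknown, so that every value below describes the pooled populations with no replicate error. A further 4 samples, of ChIP-seq, were not used here.

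Naive ES cells keep a small set of transcription factors active, and OCT4 and SOX2 often bind side by side at a composite DNA element made of a SOX motif and an octamer. Utf1 and Fbxo15 are known as targets of such elements. MYC proteins and LIN28A act on growth, metabolism and RNA processing and were used as reprogramming factors. Other genes of the set, such as Dppa3, Dppa4 and Dppa5a, are active in the early embryo and the germ line and serve as readouts of the pluripotent state.

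The composite was searched on both strands as CATTGT, 1 free base and ATGCAAAT, with at most 2 mismatches over the 14 bases compared. Of the 179 regions 2 held a match (1.12%, exact 95% binomial interval 0.136 to 3.98), where 0.885% of all regions in the list did. These matches lay beside Utf1 and Dppa3, and their surroundings are shown because they are the only composite matches at the 10 loci that fell in accessible DNA. The sequences were read from the GRCm38 reference (build mm10), which comes from another mouse strain than CGR8, 5′ to 3′ on the strand of the match, with composite and octamer matches in capitals. The Utf1 sequence spans chr7:139945581-139945795 on the minus strand, past the 3′ end of Utf1 in DNA with no annotated exon, and the Dppa3 sequence spans chr6:122624581-122624795 on the minus strand, in intergenic DNA upstream of Dppa3.
Utf1 3′ side: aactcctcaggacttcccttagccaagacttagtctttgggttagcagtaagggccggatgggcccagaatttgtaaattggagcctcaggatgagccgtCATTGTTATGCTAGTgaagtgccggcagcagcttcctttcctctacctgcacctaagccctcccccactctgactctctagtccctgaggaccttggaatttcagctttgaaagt
Dppa3 upstream: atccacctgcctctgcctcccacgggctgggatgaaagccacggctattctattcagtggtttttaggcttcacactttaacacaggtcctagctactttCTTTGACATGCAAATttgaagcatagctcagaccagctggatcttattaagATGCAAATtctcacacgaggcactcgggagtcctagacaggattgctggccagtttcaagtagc
The Utf1 match had both of its 2 mismatches in the octamer side and the SOX side intact, and the Dppa3 match had its 2 mismatches in the SOX side, followed by an intact octamer. The Dppa3 sequence held a further octamer, so that 2 octamers lay within this region.

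Over the whole of the 10 loci, inside regions or not, 30 composite matches were found, most of them outside the regions. Matches with only 1 mismatch outside the regions included a pair at the Tdh and Dppa3 loci, and not every such match is shown. The match at the Tdh locus was 676 bp from the nearest region. The match at the Dppa3 locus was 4179 bp from one and ended 62 bp upstream of the TSS of Nanog. They are shown for comparison with the matches above, each with 15 bases to either side, so that the printed stretches span chr14:63605246-63605290 (plus strand) and chr6:122707398-122707442 (minus strand).
Tdh locus: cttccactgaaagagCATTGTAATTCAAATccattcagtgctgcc
Dppa3 locus: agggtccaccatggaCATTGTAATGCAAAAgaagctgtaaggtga
In both the SOX side was intact and the mismatch fell in the octamer side.

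Regions were unevenly spread over the loci. Sall4 had the most, 26, and Dppa3 had 25. Lin28a had 20 and Utf1 had 19. Dppa5a and Fbxo15 had 17 each, Mycn and Dppa4 had 16 each, Myc had 13 and Tdh had the fewest, 10. The same rule gave a median of 11 regions (quartiles 6 and 17) for the 21938 protein-coding genes, so that 9 of the 10 genes lay above the median and 4, Sall4, Dppa3, Lin28a and Utf1, above the upper quartile. Of all protein-coding genes 4.97% had as many regions as Sall4 or more, 6.38% as many as Dppa3 or more and 59.1% as many as Tdh or more. The 10 loci covered 2068 kb at 8.66 regions per 100 kb, where the median protein-coding gene had 5.00 (upper quartile 7.76). Neighbouring genes contribute to such counts, and the loci held between 1 protein-coding gene (Myc and Mycn) and 11 (Dppa5a), with a median of 4.5 against 5 over all protein-coding genes.

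**Figure D1:**
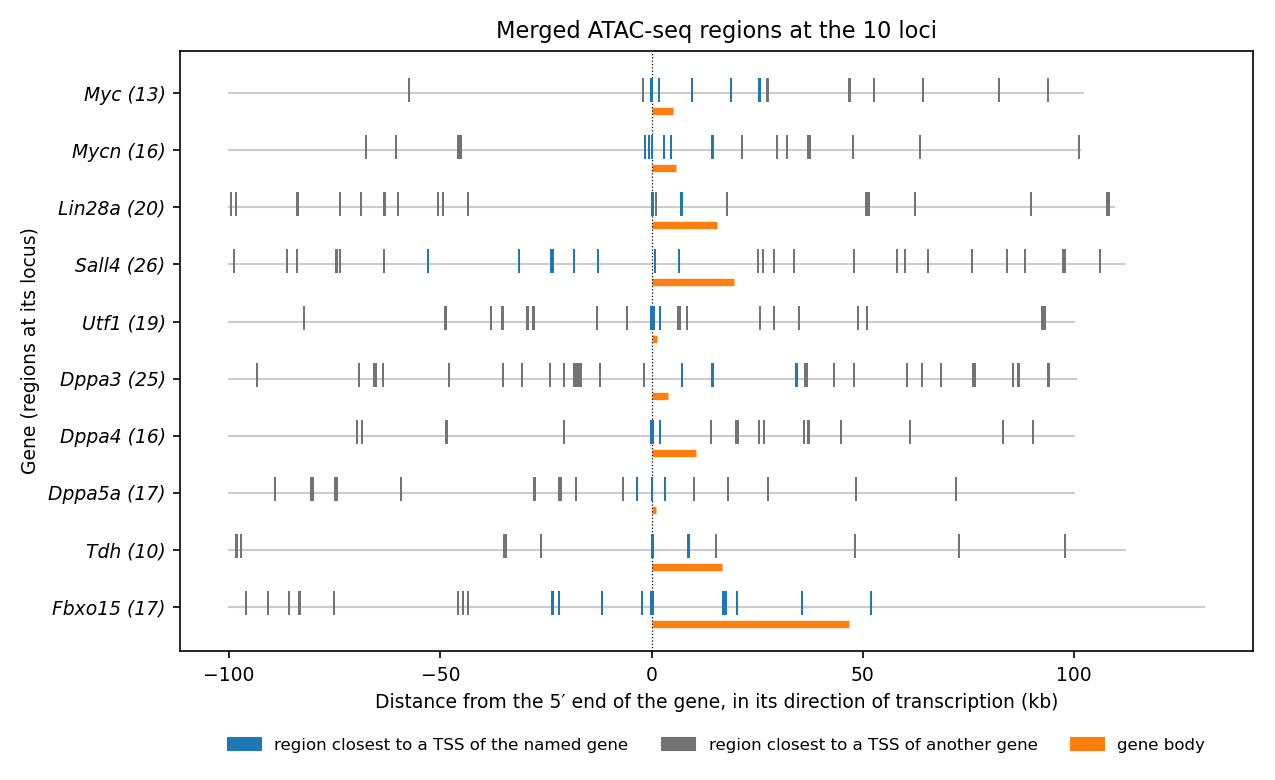
Position of each of the 179 merged ATAC-seq regions (vertical marks, drawn at least 0.5 kb wide) against the 5′ end of the gene in kb, 1 line per locus, with the number of regions in brackets and the gene body in orange. Blue marks, the 42 regions whose closest TSS is that of the named gene, lie at or near the 5′ end at 9 of the loci and also upstream at Sall4 and Fbxo15 and downstream at Myc, Mycn, Dppa3 and Fbxo15; at Dppa3 all 3 lie downstream.

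**Figure D2:**
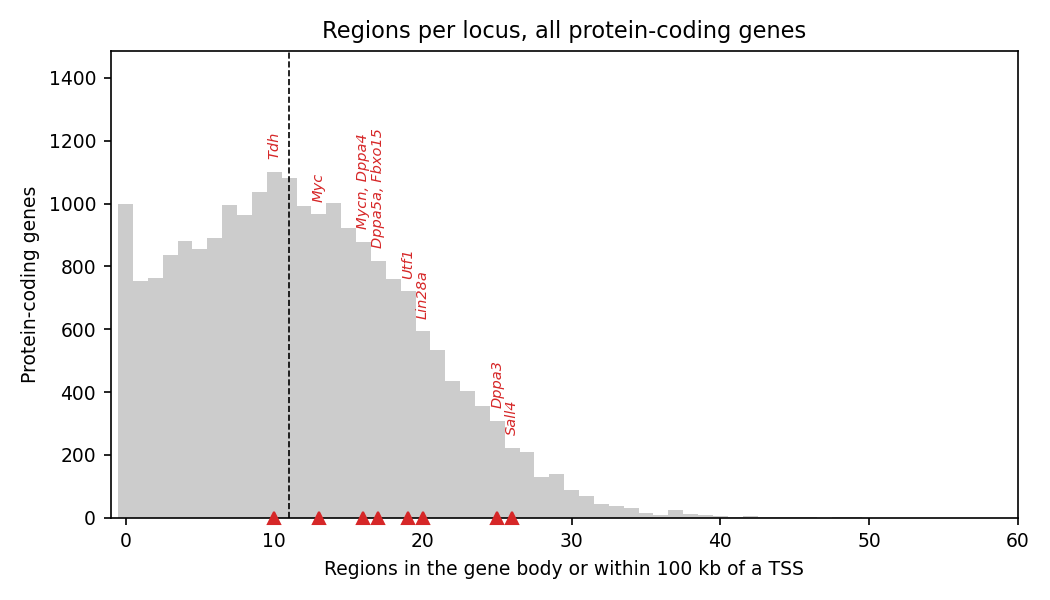
Number of regions per locus over all 21938 protein-coding genes (grey bars; 7 genes with over 60 regions are not drawn), with the 10 genes marked by red triangles and names and the median of 11 by a dashed line. Tdh lies left of the median and the other 9 genes to its right.

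The regions were of ordinary size, with a median width of 380 bp (quartiles 232 and 551, range 121 to 2265) against 355 bp in the whole list, and they covered 3.74% of the locus bases. By the position of their centres 42 lay at a promoter of some gene (23.5% against 21.0% of the whole list), 17 in an exon (9.50% against 8.76%), 51 in an intron (28.5% against 35.1%) and 69 between genes (38.5% against 35.2%). Upstream and downstream of the genes there were 79 regions each, and 21 lay in the bodies of the 10 genes. Measured from the nearest TSS of the gene in question, 16 regions lay under 1 kb away, 23 between 1 and 10 kb, 74 between 10 and 50 kb and 66 beyond 50 kb. For 42 of the 179 (23.5%) the closest TSS of any annotated gene was that of the named gene, and for 72 (40.2%) it was the closest when protein-coding genes alone were considered.

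A region at a promoter, with its centre at most 1000 bp before or 100 bp after a TSS, was found for 8 of the 10 genes, where 57.7% of all protein-coding genes had one. The exceptions were Utf1 and Dppa3. A region that covered a TSS was found for 9 of 10, all but Dppa3, where 61.4% of protein-coding genes had one. When the most 5′ TSS alone was considered the count was 4 of 10 (Myc, Mycn, Dppa5a and Fbxo15), against 39.2% of protein-coding genes, since the regions of Lin28a, Sall4, Dppa4, Tdh and Utf1 were centred further into the gene.

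The RefSeq promoter table (GRCm38.p6, 250 bases before to 50 after a gene's start) had entries for 3 of the 10 genes, Mycn, Lin28a and Utf1. Entries were not found for Myc, Sall4, Dppa3, Dppa4, Dppa5a, Tdh and Fbxo15. All 300 bases of the Lin28a and Utf1 windows and 221 of the Mycn window lay inside regions. The parts upstream of every annotated exon are shown on the strand of the gene, at chr12:12941915-12942086 (minus), chr4:134018842-134019066 (minus) and chr7:139943606-139943788 (plus), with the GC box GGGCGG on either strand in capitals.
Mycn: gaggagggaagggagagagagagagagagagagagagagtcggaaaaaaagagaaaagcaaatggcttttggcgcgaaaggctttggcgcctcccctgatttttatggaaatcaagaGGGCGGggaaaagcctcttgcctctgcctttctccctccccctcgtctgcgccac
Lin28a: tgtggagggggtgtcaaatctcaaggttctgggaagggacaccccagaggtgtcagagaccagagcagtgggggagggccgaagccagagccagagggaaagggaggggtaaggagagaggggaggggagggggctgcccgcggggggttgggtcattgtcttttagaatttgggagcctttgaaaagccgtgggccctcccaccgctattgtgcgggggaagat
Utf1: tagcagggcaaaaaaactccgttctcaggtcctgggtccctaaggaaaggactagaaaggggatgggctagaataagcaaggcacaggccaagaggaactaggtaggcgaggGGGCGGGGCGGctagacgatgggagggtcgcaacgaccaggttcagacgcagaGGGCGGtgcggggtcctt
The Utf1 stretch held 3 GC boxes, the first pair overlapping, the Mycn stretch held 1 and the Lin28a stretch none. Over the full 300 bases Utf1 had 4, Mycn 2 and Lin28a 1, so that all 3 promoter windows held a GC box, as did 35.7% of the 32851 RefSeq promoters. Neither a SOX motif, an octamer nor a composite with at most 2 mismatches was present in these 3 promoter windows, where 9.28%, 1.74% and 0.408% of RefSeq promoters had one.

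Myc, which encodes the transcription factor c-MYC and was among the original reprogramming factors, lies on the plus strand of chromosome 15. Its TSS was covered by an 842 bp region (chr15:61984937-61985778), wide enough that 9.29% of all regions were as wide or wider, and this region took in 3 of the 6 annotated start sites. A 227 bp region inside the gene covered another. A 414 bp region was centred at -2022 bp from the TSS, and beyond it no region was found over 55137 bp, up to a 193 bp region at -57462 bp. The downstream side was fuller, with 9 regions, 4 of them closest to the noncoding gene Pvt1, 1 of which lay over the Pvt1 start. Gm37947, of unconfirmed type, and the noncoding entry Gm27782 were closest to 2 regions each. Over its 202 kb 14 octamers occurred and none was inside a region, where regions held 2.98% of the locus bases.

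Mycn, the paralog of Myc on chromosome 12, had 3 regions in a row at its start. A 270 bp region covered 2 of its 3 start sites (chr12:12941738-12942007), a 501 bp region was centred 659 bp upstream and a 341 bp region 1616 bp upstream. No further region was found upstream for 43184 bp, until an 1105 bp region at the noncoding gene Gm35208, the widest of this locus. Gm35208 was closest to 3 regions, and the pseudogene Rpl36-ps3 and the noncoding gene 4930519A11Rik to 2 each. Of the 16 regions 6 had Mycn as the closest gene, and Mycn was the only protein-coding gene of the locus. The region at the TSS had a composite at 3 mismatches and no closer match, as had the regions over the starts of Dppa4, its neighbour Dppa2 and Fbxo15. Of all regions 5.33% had a composite with at most 3 mismatches.

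Lin28a encodes an RNA-binding protein that blocks the maturation of let-7 microRNAs. An 811 bp region lay over its start on chromosome 4 (chr4:134018271-134019081), centred 165 bp into the gene, and 3 narrow regions of 142, 168 and 173 bp lay further inside the gene body. Upstream of the gene no region was found for 43004 bp. Of the 20 regions 3 had Lin28a as the closest gene, whereas 7 were closest to Crybg2, 4 to Hmgn2 and 3 to Ubxn11, and 9 of the 20 lay at promoters. The E-box CACGTG, a sequence that MYC-MAX dimers can bind, occurred in 9 of these 20 regions, where 9.67% of all regions had one. All 9 were closest to other genes, the 142 bp region inside the gene being closest to Gm13061. None of the 3 regions closest to Lin28a, the region over the start among them, held an E-box.

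Sall4, a zinc finger factor needed for ES cell self-renewal, lies on the minus strand of chromosome 2 and had the most regions. A 528 bp region (chr2:168766844-168767371) covered 3 of its 6 start sites, and the most 5′ start, that of a transcript without a coding sequence, lay 572 bp away from it. The upstream side carried a row of 11 intergenic regions. The 5 nearest of them, from 12605 to 52920 bp upstream, had Sall4 as the closest gene, and the widest was an 882 bp region at 23591 bp upstream with 3 SOX matches. The small nucleolar RNA gene Gm25214 was closest to 6 regions. All 13 downstream regions were closest to Atp9a, a phospholipid-transporting ATPase gene whose 5′ end faces the 3′ end of Sall4. The Sall4 locus held no octamer on either strand over its 212 kb, inside regions or outside them, whereas the other 9 loci held between 5 and 22.

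Utf1, a chromatin-associated factor expressed in undifferentiated cells, is 1324 bp long and was mostly covered by a 1228 bp region (chr7:139943426-139944653) centred 250 bp downstream of the TSS. In the whole list 1.68% of regions were as wide or wider. The region with the composite shown above, 308 bp wide and centred 1932 bp from the TSS, was the next one downstream (chr7:139945568-139945875), and it also held 1 AAGGTCA match. These 2 were the regions with Utf1 as the closest gene. Of the other 17 regions 7 were closest to Kndc1, 4 to the noncoding gene Gm16201 and 2 to 6430531B16Rik. The octamer nearest the TSS, at -823 bp, lay 456 bp outside a region.

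Dppa3, which encodes STELLA, a maternal factor that protects DNA methylation in the early embryo, was the only gene of the 10 with no region over a TSS and none in the gene body. The nearest region was the 347 bp region with the composite and 2 octamers (chr6:122624539-122624885), centred at -1698 bp, with its edge 1525 bp from the TSS. Around that TSS 98.0% of the 75-base stretches (500 bp to either side) occur at a single place in the genome. Downstream of the gene came regions of 577, 674 and 182 bp, at 6835, 14049 and 33942 bp from a TSS, which were the only 3 with Dppa3 as the closest gene, and the narrowest of them held an octamer. The widest region of all 10 loci, 2265 bp, lay at -17558 bp within Gdf3, and 14 of the 81132 regions were at least as wide. Apobec1 was closest to 4 regions, the pseudogene Gm10420 to 6 and Nanog to 3. The Nanog TSS, inside this locus, had no region within 4255 bp, and all 75-base stretches around it (100%) were unique. The authors discarded peaks that overlap peaks of a ChIP input, and whether any was lost at the Dppa3 or Nanog TSS was not tested.

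Dppa4 and its neighbour Dppa2, SAP-domain proteins that act together in early embryos and ES cells, lie in tandem on chromosome 16. The Dppa4 start was covered by a 944 bp region (chr16:48283380-48284323) over all 3 of its annotated start sites, with 6.07% of all regions as wide or wider. A 182 bp region lay in an intron, and the nearest of the 4 upstream regions was at -20678 bp. Dppa2 was closest to 7 regions and had a 913 bp region over its start (chr16:48303547-48304459). The pseudogenes Gm7204 and Gm49771 were closest to 3 each. This locus had the lowest GC content in its regions, a median of 44.8% against 51.9% in the whole list, and the largest repeat share, a median of 28.4% of bases against 9.12%. A SOX match occurred in 6 of its 16 regions, where 16.0% of all regions had one. The octamer in the Dppa2 start region is shown with 100 bases to either side (chr16:48304295-48304502, plus strand, intron of Dppa2), beside the octamer of the Tdh locus described next (chr14:63500475-63500682, plus strand, no annotated exon).
Dppa2 start: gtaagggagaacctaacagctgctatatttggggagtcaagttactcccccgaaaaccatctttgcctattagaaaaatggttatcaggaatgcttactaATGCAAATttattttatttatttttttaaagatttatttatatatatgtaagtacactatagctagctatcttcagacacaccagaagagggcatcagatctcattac
Tdh internal start: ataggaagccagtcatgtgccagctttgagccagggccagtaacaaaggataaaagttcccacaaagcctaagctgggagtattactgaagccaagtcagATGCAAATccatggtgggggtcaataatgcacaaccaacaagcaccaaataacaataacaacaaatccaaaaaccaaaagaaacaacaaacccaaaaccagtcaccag

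Tdh encodes threonine dehydrogenase, the enzyme that lets mouse ES cells feed threonine into glycine and acetyl-CoA production. It had the fewest regions, 10, and 3 of them lay in its gene body. A 670 bp region covered the start of the coding transcript and another start site (chr14:63508456-63509125), and a 666 bp region covered an internal start site that 3 transcripts share (chr14:63500046-63500711). The octamer shown above lay in the latter region, and the former held 1 E-box, 1 KLF match and 1 AAGGTCA match. These were the only 2 regions with Tdh as the closest gene. Mtmr9 was closest to 2 regions, and Gm17232 and Gm47074, a noncoding gene and a pseudogene, to 1 each. Upstream of Mtmr9 a gap of 61682 bp was the longest between neighbouring regions of the same locus, stretches at the locus edges not counted.

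Dppa5a encodes a KH-domain RNA-binding protein of ES cells and lies on chromosome 9 next to its relative Ooep. A 431 bp region covered its TSS (chr9:78367862-78368292), centred exactly 100 bp downstream, at the edge of the promoter window. Regions of 215 and 206 bp lay 3248 bp downstream and 3530 bp upstream and were, with the region at the TSS, the only 3 closest to Dppa5a. Gsta2 and the pseudogene Gm8087 were each closest to 3 regions and Ooep to 1. The sequence of Dppa5a is repeated elsewhere: 37.7% of the 75-base stretches that start in its body occur at a single place in the genome, against 94.5% or more in the bodies of the other 9 genes, and 90.0% of those around its TSS do. Reads were kept by the authors only where they mapped uniquely, and the part of this in the regions found here was not tested.

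Fbxo15, an F-box gene whose activation was the first reporter of reprogramming although ES cells do not need it, had the largest gene body, 46692 bp. Its start was covered by a 930 bp region over 3 of its 6 start sites. A 1293 bp region lay over an internal start site 17 kb into the gene, and 1.24% of all regions were as wide or wider. Fbxo15 was the closest gene of 9 of its 17 regions (52.9%), the highest share of the 10 genes, with 5 of these 9 upstream or at the start. Cyb5a was closest to 7 regions and Gm16146 to 1. Octamers were most frequent here, 22 over 231 kb, and none of them lay in a region, where regions held 3.18% of the locus bases.

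Motif matches over all 179 regions were compared with the whole list, both strands being searched and overlapping matches counted. A SOX motif (CCATTGT or CCTTTGT) occurred in 28 regions (15.6%, exact 95% binomial interval 10.7 to 21.8), where 16.0% of all regions had one, or 16.1% when the whole list was weighted to the widths of these regions. The octamer ATGCAAAT occurred in 4 (2.23%, interval 0.612 to 5.62) against 2.66%, also 2.66% at like widths. KLF matches (CCACACCC or CCCCACCC) occurred in 32 (17.9%) against 18.3%, AAGGTCA, which nuclear receptors such as ESRRB bind, in 19 (10.6%) against 10.9%, and its longer form TCAAGGTCA in 4 (2.23%) against 2.24%. TTCCNGGAA, a STAT motif, occurred in 2 (1.12%) against 1.89%, CCAAT in 77 (43.0%) against 38.1% and TATAAA in 22 (12.3%) against 13.3%. GGGCGG occurred in 54 (30.2%) against 29.3%. The intervals cover counting error only and every one of them held the share of the whole list. The E-box was more frequent than in the whole list, with 25 of 179 regions (interval 9.25% to 19.9%) against 7843 of 81132 (9.67%), and without the Lin28a locus it was found in 16 of 159 (10.1%). With at most 3 mismatches the composite was found in 14 regions (7.82%) against 5.33% of the list, and with at most 1 in 0 of 179 (upper limit 2.04%) against 77 of 81132 (0.0949%), too rare in the whole list for the 0 to tell these loci from it.

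**Figure D3:**
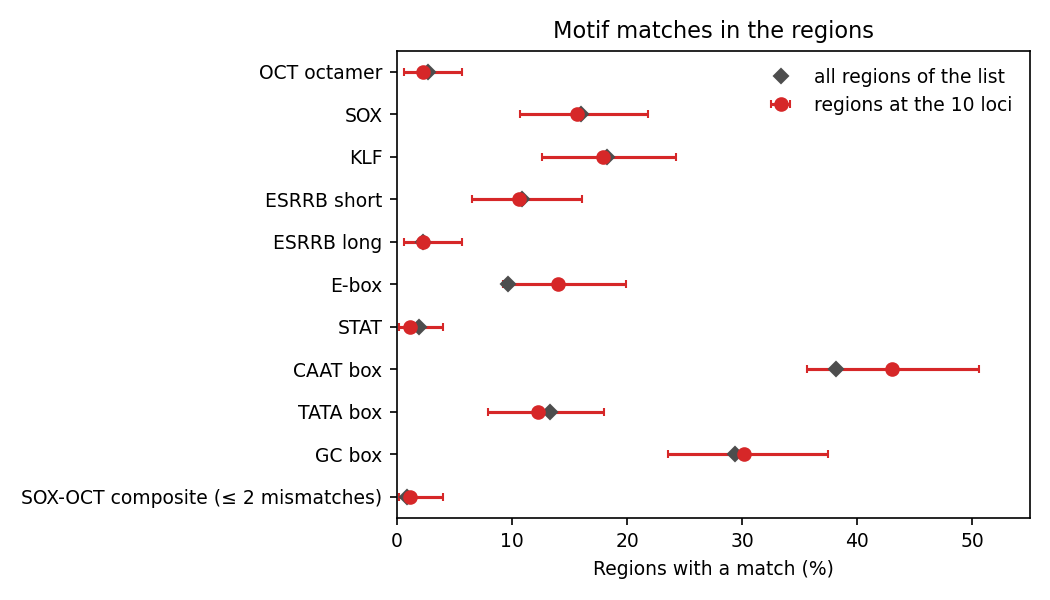
Share of regions with at least 1 match to each motif, in percent, for the 179 regions at the 10 loci (red, with exact 95% binomial intervals) and for all 81132 regions (grey diamonds). The intervals hold the grey diamonds for all motifs, and the E-box diamond sits near the lower end of its interval.

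Octamers and composites were also counted over the whole of the loci. Of 109 octamers 5 (4.59%) and of 30 composites 2 (6.67%) lay inside regions, which held 3.74% of the bases. At Dppa3 3 of 7 octamers were in regions, at Dppa4 1 of 13 and at Tdh 1 of 10. At the other loci with octamers, Myc, Mycn, Lin28a, Utf1, Dppa5a and Fbxo15, none was.

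**Figure D4:**
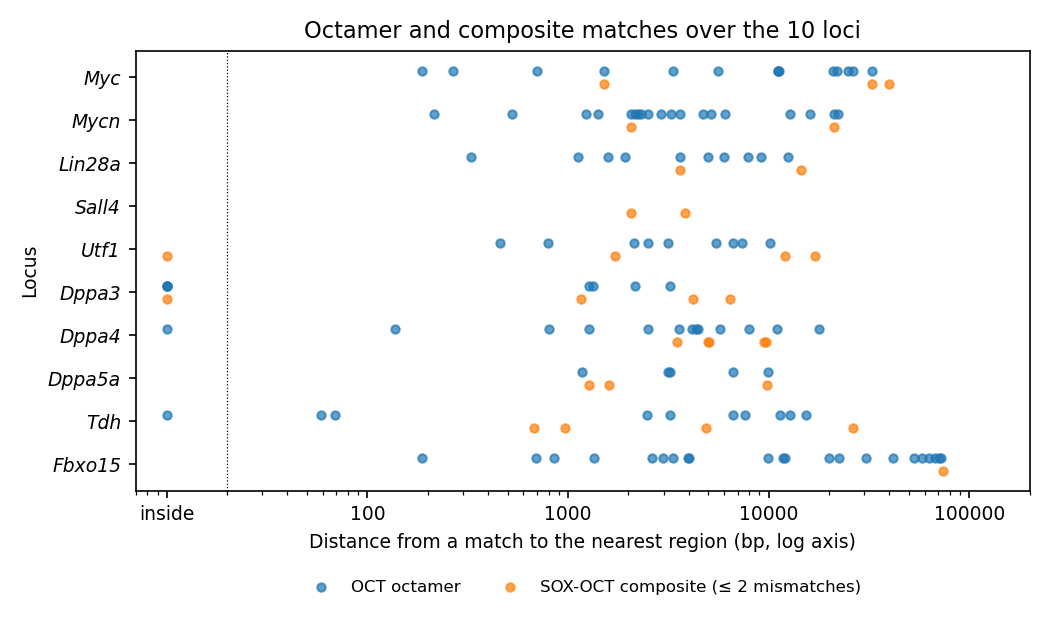
Distance in bp (log axis) from each octamer (blue) and composite match with at most 2 mismatches (orange) to the nearest region, 1 line per locus, with matches inside a region at the far left. Octamers lie inside at Dppa3, Dppa4 and Tdh, composites at Utf1 and Dppa3, and Sall4 has no octamer.

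Uniqueness of the sequence differed between loci. The share of 75-base stretches, the length of the reads, that occur at a single place on chromosomes 1 to 19, X and Y was lowest at Dppa5a (84.6%), Fbxo15 (87.5%) and Utf1 (92.7%) and highest at Tdh (98.5%). Inside the regions it was at least 98.2% at every locus. The longest gap between neighbouring regions was also largely unique at Myc (97.3%), Mycn (98.7%) and Tdh (99.0%), whereas at Utf1 it was unique for 67.8%. Around the 5′ ends of all protein-coding genes the median was 100%, and 4.87% of them were unique over less than 50%. Of those genes 4.77% had a region at a promoter, against 60.4% of the other genes.

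The ES cell label was compared with markers of several cell types, by the same promoter rule. Of 20 ES cell markers 15 had a region at a promoter. The 5 without one were Gdf3, Klf2, Nanog, Nr0b1 and Tfcp2l1. The 2265 bp region of the Dppa3 locus covered a Gdf3 TSS, but its centre lay 972 bp away, outside the promoter window. Gdf3 and Nanog share regions with the Dppa3 locus, and Dppa2 is in the Dppa4 locus. Nanog had the most regions by the rule, 32, and Nr0b1 the fewest, 3. Of 10 liver markers F2 alone had a promoter region, and Alb, Apoa1, Apoa2, Cyp2e1, Cyp3a11, Fgb, Hnf4a, Serpina1a and Ttr had none, with between 0 regions at Serpina1a and 24 at Hnf4a. Of 10 muscle markers Ckm alone had one, and Acta1, Actc1, Myf5, Myh1, Myh6, Myod1, Myog, Tnni3 and Tnnt2 had none, with between 6 regions at Myod1 and Myh1 and 24 at Tnnt2. Of 10 blood markers 0 had one (exact upper limit 30.8%), those without one being among others Cd3e, Cd4, Cd79a, Cd8a, Gata1, Hbb-bs, Itgam, Ptprc and Spi1, with between 4 regions at Hbb-bs and 24 at Cd4. Of 10 fibroblast markers 7 had one, all but Col3a1, Lum and Postn, with between 1 region at Dcn and Lum and 21 at Pdgfrb. The cells came from an ES line and were sorted on SOX2-SNAP and OCT4-HALO signal, and whether fibroblasts were among them was not tested. Of 15 genes used in every cell 14 had one, all but B2m, with between 8 regions at Pgk1 and 29 at Actb.

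**Figure D5:**
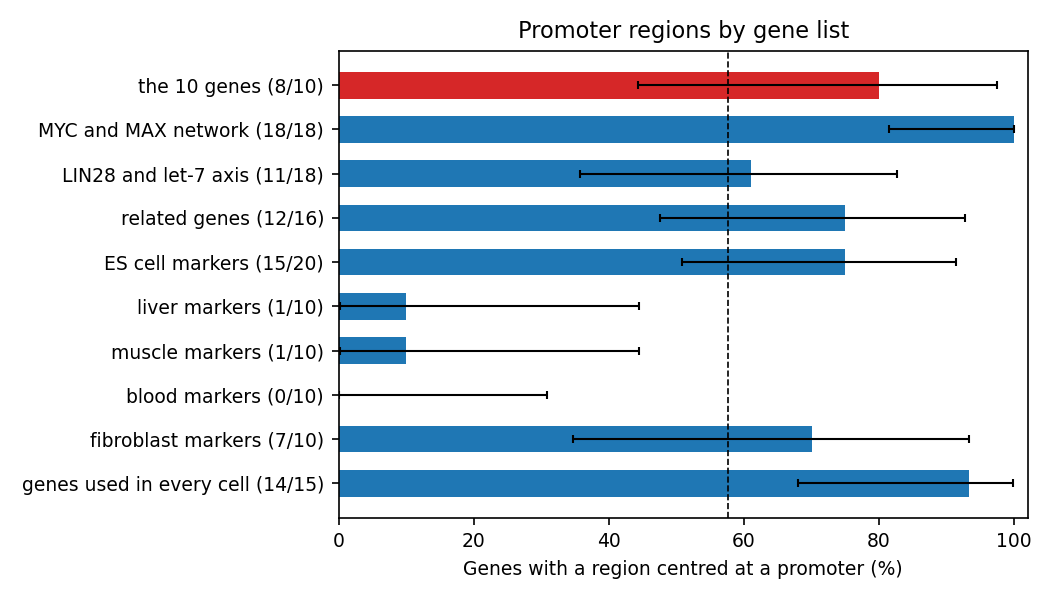
Share of the genes in each list with a region centred at a promoter, in percent, with exact 95% binomial intervals and, in brackets, the number of genes with one and the number found in the annotation. The dashed line marks the 57.7% of all protein-coding genes, above which lie the 10 genes, at 8 of 10, and all lists but those of liver, muscle and blood.

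The genes around the 10 had regions at promoters to varying degrees. All 18 genes of the MYC and MAX network, which holds Myc and Mycn with their dimer partner MAX, the competing MXD proteins and the coactivator subunits, had a region at a promoter, and their regions per locus ranged from 3 at Mxd4 to 25 at Ruvbl2. Of 18 genes of the LIN28 and let-7 axis 11 had one, Lin28a among them. Of the 7 without one 6 were let-7 genes (Mirlet7a-1, Mirlet7b, Mirlet7c-1, Mirlet7d, Mirlet7f-1 and Mirlet7i), whose annotated start is that of the hairpin, and the other was Trim71. The fewest regions were at Mirlet7c-1, 2, and the most at Hmga2, 24, a target of let-7. Mirlet7a-1, Mirlet7d and Mirlet7f-1, all on chromosome 13, had 16 regions each, and how many of these they share was not counted. Of 16 relatives and partners of the 10 genes 12 had one and Dppa1, Ooep, Sall1 and Sall2 did not. Dppa1 had the fewest regions, 7, and Dnmt1 and Khdc3 the most, 23 each. Zcchc11 and Zcchc6, listed also under their present names Tut4 and Tut7, and Kbl matched no gene name in the annotation.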

How the data were processed

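Per the submitters' processing notes and the study's methods, the authors aligned reads to mm10 with STAR 2.5.3a, kept unique reads, removed duplicates with Picard, called peaks per library with MACS2 2.1.1.20160309, merged them with BEDOPS and discarded those that overlap peaks of a ChIP input. The deposited 81132 positions have 3 columns and no level, so the reads behind each region are unknown and no test was made. Python 3.11.15 with pandas 2.3.3, numpy 2.4.6, scipy 1.17.1 and numba 0.67.0 placed regions by centre against GENCODE M21, searched motifs in GRCm38 and counted unique 75-base stretches, checked on simulated data, and matplotlib 3.10.9 drew the figures. Named were all 10 genes, up to 3 other genes per locus closest to the most regions, and of each list the genes with the most and fewest regions and those without a promoter region (with one, where fewer). The GC box and the uniqueness count were added after the data were seen. The genes and lists were chosen with earlier results of these data known.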

Additional observations from a re-analysis of the deposited data

How the results depend on the processing

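Of 29 alternative settings 17 left a count within 1.5 times its value or a share within its interval, and 12 did not. The number of regions followed the size of the locus, with 113 regions at 50 kb, 319 at 200 kb and 46 for the gene body with 10 kb, and stayed within 1.5 times when any overlap counted, with other choices of transcripts, without regions under 200 bp or with neighbours joined. Genes with a promoter region fell to 4 with the most 5′ TSS alone and lay between 6 and 10 under the other settings. The named gene was the closest protein-coding gene of 72 regions. A SOX motif was found in 13 regions by their central 200 bp (7.26% against 8.99% of the whole list) and in 18 of the 137 outside promoters (13.1% against 16.6%), and an octamer in 2 (1.12% against 1.54%) and 2 (1.46% against 2.78%). The composite was found in 0 regions with no mismatch, in 0 with at most 1 and in 14 with at most 3. The E-box share without the Lin28a locus was an alternative chosen after seeing the data.

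No paired analysis was possible because the list holds no value for any library, although replicate numbers are shared between the populations in the labels. For the same reason leaving out each replicate in turn was not run, and no difference between SHOH, SHOL, SLOH and SLOL was computed. Whether regions were missed for want of reads was not tested, since the reads behind each region are unknown. Whether regions were lost to the ChIP input filter was not tested either, since the list does not hold the discarded peaks.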
